A study of Triticum aestivum and Triticum turgidum subsp. durum with 27 samples.

Results

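Membrane transporters and channels were described here by 42 probe sets of the Affymetrix Wheat Genome Array, out of 61179 wheat probe sets on it. The members were chosen by the words transporter, permease, antiporter, symporter, aquaporin, intrinsic protein, ATPase or channel in the description of the best Arabidopsis match, within the list of probe sets that the study itself had selected on these same samples for a response to drought. Of that list 1420 probe sets were held here, 1067 of them with an Arabidopsis match, so that the 42 members are a part of the transport genes on it. They match 31 Arabidopsis genes, 9 of which are matched by more than 1 probe set (20 probe sets in all). Members are named by their match, and probe sets of 1 match are told apart by brightness or by the ending of their ID. A probe set whose ID ends in _x_at, _s_at or _a_at can take up signal from more than 1 transcript, and homoeologous copies of a wheat gene were not separated.

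Transport across membranes sets the water, nutrient and solute content of a plant cell. Aquaporins of the plasma membrane (PIP) and of the vacuole membrane, the tonoplast (TIP), let water pass. Proton-coupled carriers move nitrate, amino acids, sugars and polyols, and ABC proteins are pumps driven by ATP. Channels and exchangers for potassium, calcium and metals sit in the plasma membrane, the tonoplast and the chloroplast envelope. Glumes are the green bracts around the floret, and they pass carbon and nitrogen to the grain as it fills. The members were grouped by the substrate known for the Arabidopsis match into 9 classes. They are water (4 probe sets), nitrate (2), amino acids (7), sugars and polyols (4), nucleotide sugars (3), sulfate and phosphate (7), cations and metals (7), ABC proteins (6) and AAA ATPases (2). The AAA ATPases were caught by the word ATPase and are not membrane carriers, and the ABC protein AT5G60790 is of the soluble ABCF type. No sequence is shown for any member.

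RNA came from glumes of 3 genotypes in 3 treatments, with 3 arrays for each of the 9 groups and 27 arrays in all. The genotypes were the durum wheat Creso, with the A and B genomes, the bread wheat Chinese Spring (CS), which holds the D genome as well, and CS_5AL-10, a single deletion line of CS that lacks the end of chromosome arm 5AL. Well watered plants were the control (CTRL), and watering was withheld from the others until a moderate (MS) or a severe (SS) stress was reached. The treatments were set by soil water content. The study calls the stress reached comparable, yet reports a more negative leaf water potential in Creso than in the bread wheats in every treatment. Degree of stress and species therefore cannot be told apart within a treatment. The sample labels place the glumes of Creso at 7 days post anthesis and those of the bread wheats at 10 days. The study's methods give later harvest days for both, with Creso again the earlier. Stage and species therefore cannot be told apart. Creso has no D genome, and a lower level of a transcript and a transcript that matches the probes less well cannot be told apart from its intensities either. Values are intensities on the linear MAS5 scale, and a change or difference is given on the scale of log2(intensity + 16) after the arrays were centred on a common median. The added 16 makes changes of dim probe sets too small. A group in which each of the 3 arrays lay below its own array median is called low, and a fold against it is given as a lower bound. Whether groups overlap was judged on the centred scale.

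Storage protein transcripts of the grain were found in part of the glume samples. The mean log2 level of 11 gliadin and glutenin probe sets was 10.7 to 11.31 in CS CTRL and 8.24 to 10.53 in CS_5AL-10 CTRL. In Creso it was 5.05 to 6.02 on all arrays but MS replicate 1, at 8.41. Under stress it varied within groups, from 5.58 to 10.59 in CS MS, 5.77 to 10.37 in CS SS, 6.88 to 10.26 in CS_5AL-10 MS and 6.59 to 11.34 in CS_5AL-10 SS. Their summed intensity ran from 281 to 351 in Creso CTRL and from 67971 to 99977 in CS CTRL. None of the 11 was above the array median on the Creso CTRL array with fewest and 1 on that with most, against 11 of 11 on every CS CTRL array. Most of the 11 are annotated to genes on chromosomes 1D or 6D, which Creso lacks. On Creso MS replicate 1, however, 8 of the 11 were above the array median, with a summed intensity of 13361. The parts of less grain RNA and of absent target genes in the levels on the other Creso arrays were not tested. CS MS replicate 3 (5.58) and CS SS replicate 2 (5.77) were the bread wheat arrays with the lowest mean log2 level of these probe sets. Their values are given again beside some of the members below, and the part of grain RNA in the levels of members was not tested. The mean log2 level of the 3 probe sets for photosystem II proteins (PsbO and PsbP), which mark green tissue, was 14.59 to 15.27 on the Creso arrays, 13.72 to 14.41 in CS CTRL and 13.43 to 13.72 in CS_5AL-10 CTRL, and 13.63 to 14.78 in the stressed bread wheats. In CTRL 2 of the 3 were called lower in CS than in Creso (median log2 difference -1.08) and 3 of 3 in CS_5AL-10 (median -1.42). In CTRL, then, the storage protein probe sets were higher and the photosystem probe sets lower in the bread wheats than in Creso. The part of either list in the CTRL differences of the members given below was not tested. In whole glumes, fewer cells of a type and less RNA per cell cannot be told apart.

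The classes differed in level and in pattern. The TIP probe set ending in _a_at had group means of 35376 to 42704 for CS, while the cationic amino acid transporter was above the array median on all 3 arrays only in CS_5AL-10 CTRL, with a mean of 188. Of the 42 members 17 had their highest group mean in CS_5AL-10 CTRL, among them all 4 sugar and polyol carriers, 5 of the 7 amino acid carriers and the 3 probe sets of the mitochondrial phosphate transporter. Another 11 were highest in Creso SS. The remaining 14 were spread over the other 7 groups, with 1 to 3 in each. Genotype took a larger share of the variance over the 27 arrays than treatment for 25 members and a smaller one for 17. The medians were 36.4% for genotype, 28.95% for treatment, 9.94% for their interaction and 13.5% for replicates. Neither the counts of highest groups nor the variance shares are given over all tested probe sets. The members were chosen for a drought change on samples of these same groups, and nothing is read from either.

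**Figure D1:**
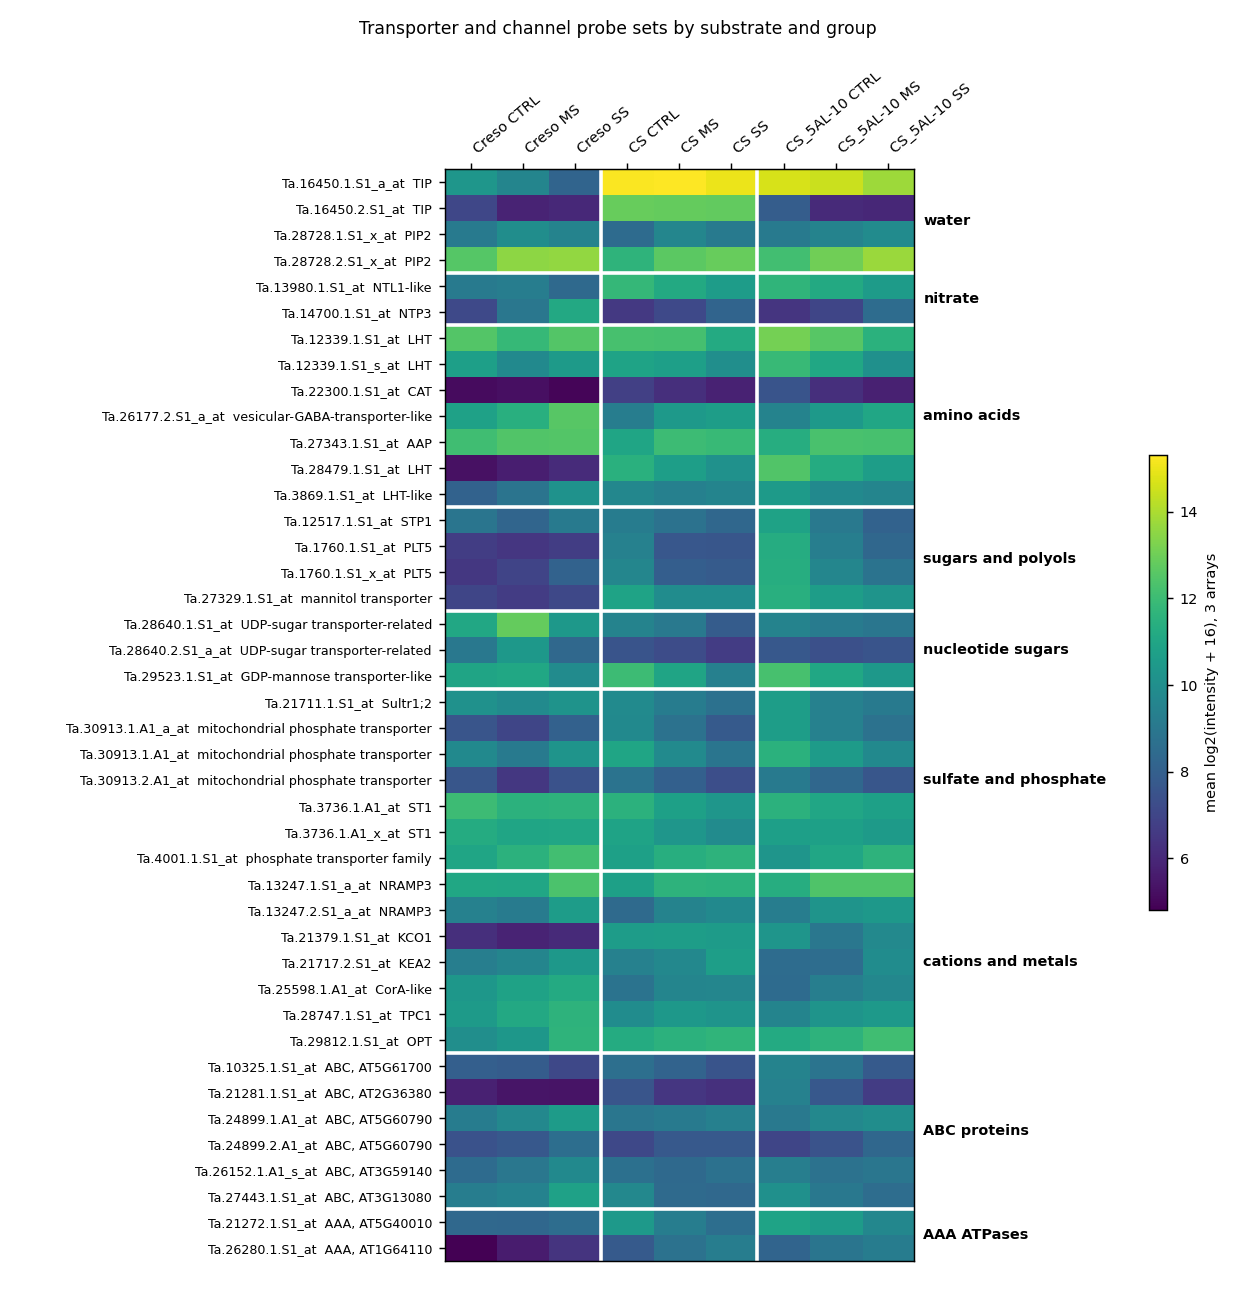
Heat map of the mean log2(intensity + 16) of 42 transporter and channel probe sets (rows, by substrate class) in the 9 groups of genotype and treatment (columns), each the mean of 3 arrays. The TIP probe set ending in _a_at is the brightest row in the bread wheats, and the sugar and polyol rows are brightest in CS_5AL-10 CTRL.

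In the drought comparisons the counts of members restate how they were selected and are given as a description. A probe set was called where the adjusted p lay below 0.05 and the difference reached 2-fold. Every one of the 42 members was called in at least 1 of the 9 drought comparisons, and all 42 passed the filter on low values. At MS against CTRL 1 member was called higher in Creso, namely NTP3, beside 1.28% of the 34089 tested probe sets called in either direction. The counts were 4 higher and 4 lower in CS (2.32% of all), and 1 higher and 8 lower in CS_5AL-10 (2.28%). At SS against MS the counts were 7 higher and 3 lower in Creso (2.68%), 0 for CS (0.232%) and 2 higher in CS_5AL-10, NTP3 and KEA2 (0.364%). Without adjustment (p under 0.05 and 2-fold) limma called 4 members for CS, and the methods' t-test 2. Severe stress against CTRL gave 16 higher and 1 lower in Creso, the TIP probe set ending in _a_at, beside 4.45% and 2.87% of all tested probe sets. It gave 6 higher and 17 lower in CS, beside 3.61% and 2.26%, and 9 higher and 19 lower in CS_5AL-10, beside 2.72% and 2.97%. Nothing is read from these shares.

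Several of the smaller counts moved with the scaling or with 1 array. With quantile normalization the counts of higher and lower were 1 and 1 for MS in Creso, 2 and 8 for MS in CS, 4 and 9 for MS in CS_5AL-10, and 2 and 2 for SS against MS in CS_5AL-10. With no centring they were 2 and 2, 1 and 8, 2 and 8, and 2 and 2. For MS against CTRL in CS no member was called without CTRL replicate 2, without CTRL replicate 3 or without MS replicate 2. For SS against CTRL in CS 15 members were called without CTRL replicate 3 and 12 without SS replicate 1, in place of 23. For MS in CS_5AL-10 the count of 9 became 4 without CTRL replicate 1, 5 without CTRL replicate 2 and 4 without MS replicate 1. For SS against MS in Creso the count of 10 became 6 without MS replicate 1 and 5 without SS replicate 1. The count of 1 for MS in Creso became 2, 5 and 3 without CTRL replicate 1, CTRL replicate 3 and MS replicate 3. In CS_5AL-10 the 2 members of SS against MS became 0 without MS replicate 3 or SS replicate 2 and 1 without MS replicate 2 or SS replicate 3, and in CS 1 was called without MS replicate 1 or SS replicate 2.

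The classes with 6 or 7 members and the sugar and polyol class are counted here at SS, as a part of the 9 classes. Of the 7 members for cations and metals 5 were called higher at SS in Creso, 2 for CS and 4 for CS_5AL-10, and none was called lower. Of the 4 for sugars and polyols 1 was called higher in Creso, while 3 were called lower in CS and 4 for CS_5AL-10. In the class of sulfate and phosphate 1 of 7 was called higher in Creso, 6 lower in CS, and 1 higher and 4 lower in CS_5AL-10. Of the 6 ABC proteins Creso had 4 higher, CS 3 lower, and CS_5AL-10 1 higher and 3 lower. Among the 7 amino acid carriers Creso had 2 higher, CS 1 higher and 1 lower, and CS_5AL-10 1 higher and 4 lower. The shares over all tested probe sets are those given above for severe stress against CTRL. Since the members were selected for a drought change, the class counts restate that selection and nothing is read from them. Taking signs alone, 15 members were higher at SS in all 3 genotypes, 16 were lower in all 3, and 10 were higher in Creso and lower in both bread wheats. No member was lower in Creso and higher in both bread wheats. Several members share a match, no share over all tested probe sets is given for these signs, and nothing is read from them. For 3 members all SS arrays lay above all CTRL arrays in 1 genotype and below them in another, beside 3.85% of all tested probe sets. The median log2 change of the 42 members at SS was 0.39 for Creso, -0.87 for CS and -0.84 for CS_5AL-10, beside 0.13, 0.06 and 0.06 over all tested probe sets.

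**Figure D2:**
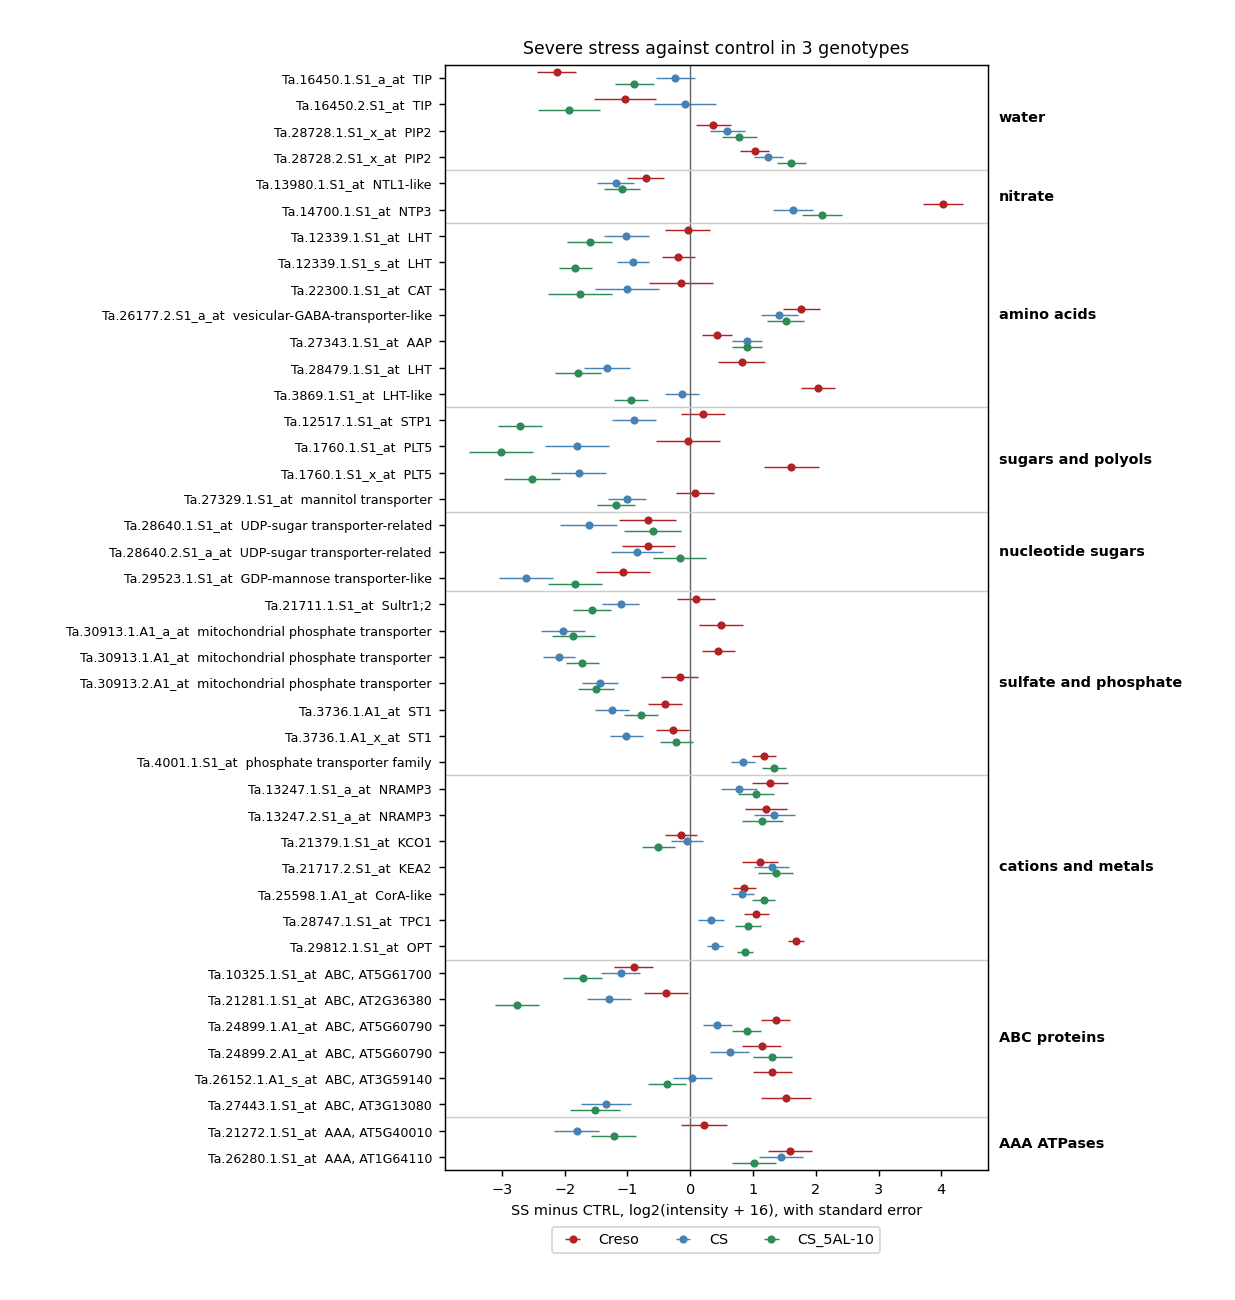
Log2 change between SS and CTRL (x axis, log2(intensity + 16), with the standard error of the fit as bars) for each member (y axis, by substrate class) in Creso, CS and CS_5AL-10. Cation and metal members lie at or right of 0 apart from KCO1, and sugar and polyol members lie left of 0 in both bread wheats.

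Genotype comparisons were not used to choose the members and were tested. They share arrays with the drought comparisons that did, and a member chosen for a fall from CTRL in 1 genotype tends to have a high CTRL value in it. In CTRL plants CS exceeded Creso for 17 members and was below it for 5, beside 15.4% and 15.5% of all tested probe sets. Between CS_5AL-10 and Creso 20 were higher and 4 lower, beside 16.3% and 14.8%. Of the 42 members 6 passed the filter on low values in no Creso group, and they entered through the bread wheat groups in which they were bright. They are the TIP probe set ending in S1_at, 1 LHT probe set, CAT, KCO1, AT2G36380 and AT1G64110, and their levels beside Creso are given below as a description, with no p. Over the 36 others the counts in CTRL were 11 higher and 5 lower for CS and 15 higher and 4 lower for CS_5AL-10, and under SS 3 and 14, and 5 and 7. The median log2 difference of the members was 0.26 for CS and 0.84 for CS_5AL-10 against Creso, beside -0.28 and -0.19 over all tested probe sets. With no centring the medians over all tested probe sets were -0.03 and 0.02, a shift of over 0.1, and the members' counts were 18 higher and 4 lower, and 22 higher and 4 lower.

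Fewer members were called between the bread wheats than between either of them and Creso. In CTRL plants 5 (11.9%) were higher and 1 (2.38%) was lower in CS_5AL-10 than in CS, beside 0.848% and 1.20% of all. With quantile normalization these counts were 5 and 2. The count of 6 was 3 without CS CTRL replicate 1 and 2 without CS CTRL replicate 2, CS_5AL-10 CTRL replicate 1 or CS_5AL-10 CTRL replicate 2. Under SS CS exceeded Creso for 7 members and was below it for 14, beside 12.8% and 15.8%. With quantile normalization the counts were 8 and 8, and with no centring 9 and 8. For CS_5AL-10 against Creso under SS they were 9 and 7, beside 14.0% and 16.8%. Between CS_5AL-10 and CS under SS 0 members were higher and 2 lower, both TIP probe sets, beside 0.763% and 1.39%. The count was 4 without CS_5AL-10 SS replicate 2 and 1 without CS SS replicate 2 or CS_5AL-10 SS replicate 3, and without adjustment limma called 6 and the methods' t-test 2. Of the 22 members called between CS and Creso in CTRL, 11 (50%) were called in the same direction under SS and 1 (4.55%) in the opposite direction, beside 61.2% and 0.37% of the 10540 probe sets called in CTRL.

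**Figure D3:**
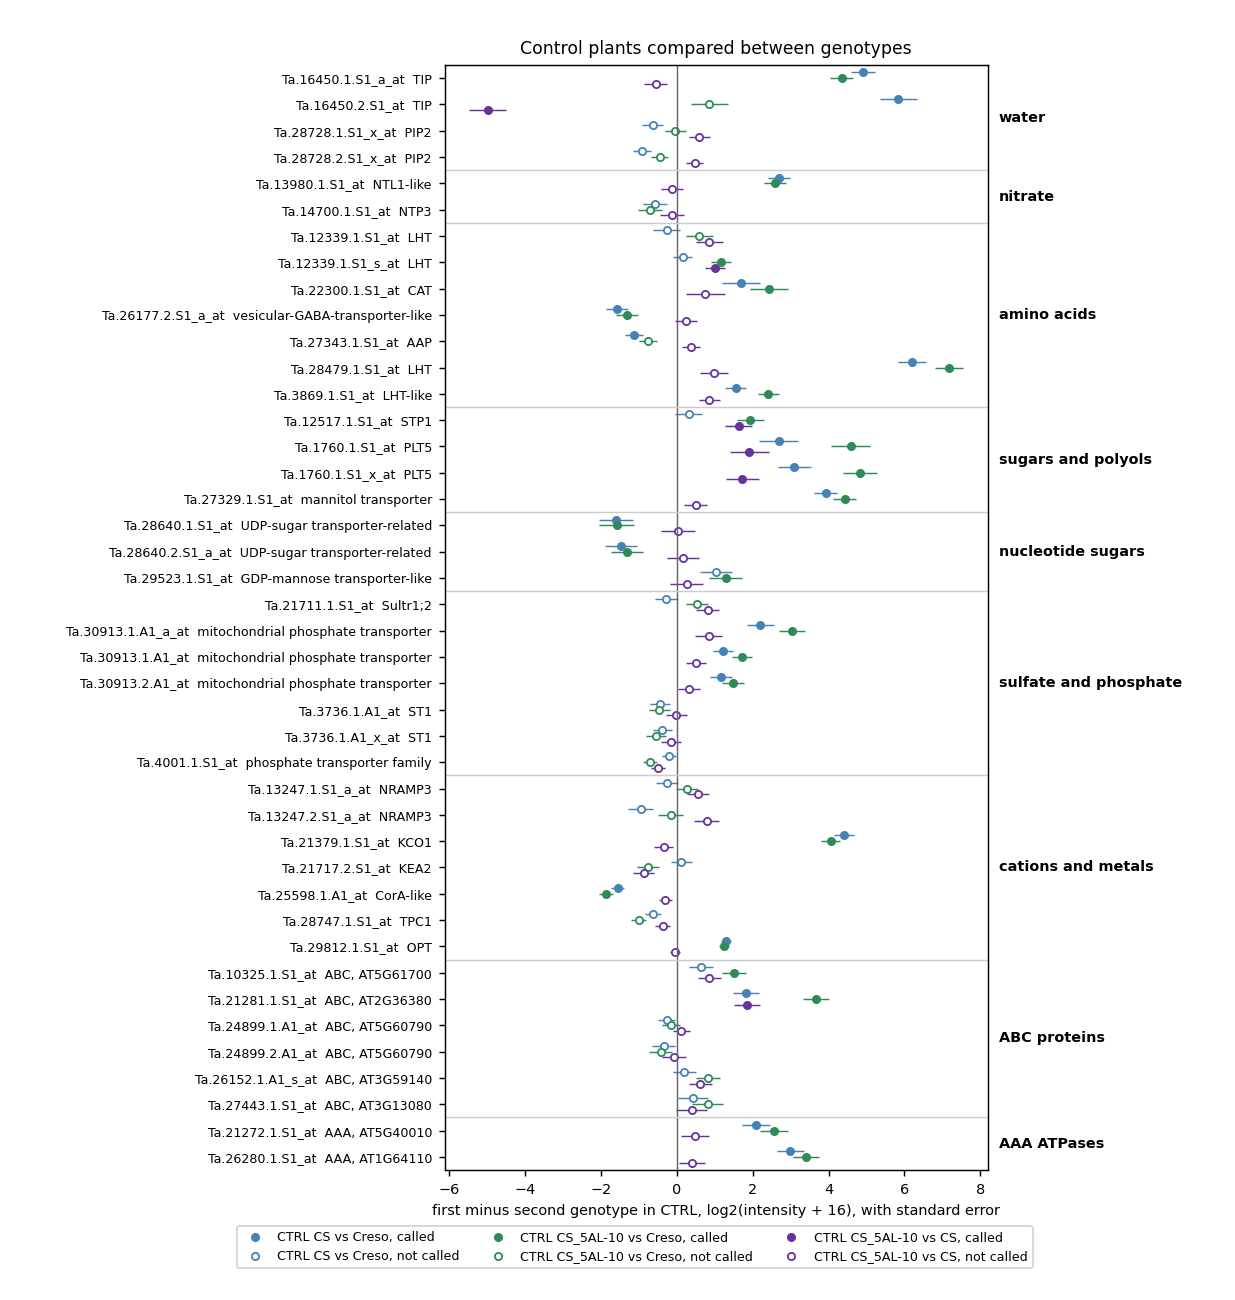
Difference between genotypes in CTRL plants (x axis, log2(intensity + 16), first minus second genotype, with standard errors) for each member (y axis, by substrate class). Filled points passed the test and the 2-fold limit, and the TIP probe set ending in S1_at is the only filled point left of 0 in the comparison of CS_5AL-10 with CS.

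Among water channels, the probe sets of the tonoplast intrinsic protein matched to AT2G25810 separated the genotypes most. On the probe set ending in _a_at the CS arrays gave intensities of 41099, 44045 and 42969 under CTRL, 44109, 34598 and 41192 under MS and 30804, 44031 and 31294 under SS. In CS_5AL-10 they were 31678, 27377 and 26416, 19894, 27154 and 28463, and 25022, 13700 and 8902 in the same order. Creso gave 1358, 1313 and 957, then 455, 803 and 818, then 177, 206 and 362. Every bread wheat array was above every Creso array. The CTRL difference to Creso was 4.90 (SE 0.31, adjusted p = 4.6e-12) for CS and 4.34 (SE 0.31, adjusted p = 3.3e-11) for CS_5AL-10. In Creso the change at SS was -2.13 (SE 0.31), with no overlap of the SS and CTRL arrays. In CS the change was -0.24 (SE 0.31) and in CS_5AL-10 -0.89 (SE 0.31), the last without overlap. Under SS the level in CS_5AL-10 was lower than in CS, at -1.21 (SE 0.31, adjusted p = 0.028). The methods' t-test after Benjamini-Hochberg adjustment did not call it in this comparison.

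The other probe set of the same match, ending in S1_at, was bright in CS alone. CS arrays gave 9507, 8067 and 7506 under CTRL, 7453, 6358 and 7792 under MS and 7033, 8796 and 7123 under SS. In CS_5AL-10 the values were 286, 287 and 172, 24.5, 123 and 59.1, and 21.3, 64.8 and 72.2. In Creso they were 147, 191 and 38.6, 19.5, 82.5 and 23.2, and 33.6, 37.7 and 44.8. The 9 CS arrays did not overlap with the 18 others. CS exceeded CS_5AL-10 under CTRL, the difference of CS_5AL-10 minus CS being -4.98 (SE 0.49, adjusted p = 1.7e-07), and leaving out any 1 array of the pair kept it between -5.13 and -4.73. Under SS the CS_5AL-10 and Creso groups were low, and the CS level was at least 75.2-fold higher than either (adjusted p = 5.3e-10 against CS_5AL-10). The methods' t-test gave an adjusted p of 0.13 for the CTRL difference. Between CS_5AL-10 and Creso the CTRL difference was 0.86 (SE 0.49). On the CS arrays with least endosperm signal, MS replicate 3 and SS replicate 2, the probe set gave 7792 and 8796, within the range of the other CS arrays. Over the 27 arrays the log2 levels of both TIP probe sets had a Pearson's r of 0.642, and 0.345 after the group means were removed. These arrays share their genotype and treatment, and the r is a description.

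Water channels of the plasma membrane differed less between genotypes. The brighter probe set of PIP2 (AT3G53420) gave 4411, 5319 and 7570 in Creso CTRL and 9828, 11817 and 9936 under SS. CS went from 4102, 3497 and 3023 to 7270, 7150 and 10025, and CS_5AL-10 from 4310, 5742 and 4411 to 15134, 10448 and 16909. The SS arrays were above the CTRL arrays in each genotype, with changes of 1.03 (SE 0.23), 1.24 (SE 0.23) and 1.61 (SE 0.23) for Creso, CS and CS_5AL-10. At MS the changes were 0.96, 1.03 and 0.90 in the same order, with values of 11432, 12760 and 7800 for Creso, 6820, 6861 and 5502 for CS and 10122, 10485 and 7348 for CS_5AL-10. The call in Creso was lost without CTRL replicate 1 or 2 or SS replicate 2 (changes of 0.93, 0.95 and 0.95), and with quantile normalization (0.89), no centring (0.90) or an offset of 64 (0.98). The dimmer PIP2 probe set had SS changes of 0.37, 0.59 and 0.78, and its SS arrays overlapped with CTRL in Creso and CS. In CTRL neither PIP2 probe set was called between genotypes, the differences of CS to Creso being -0.64 (SE 0.28, adjusted p = 0.064) and -0.92 (SE 0.23, adjusted p = 0.0017), the last past the adjusted p and under 2-fold.

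**Figure D4:**
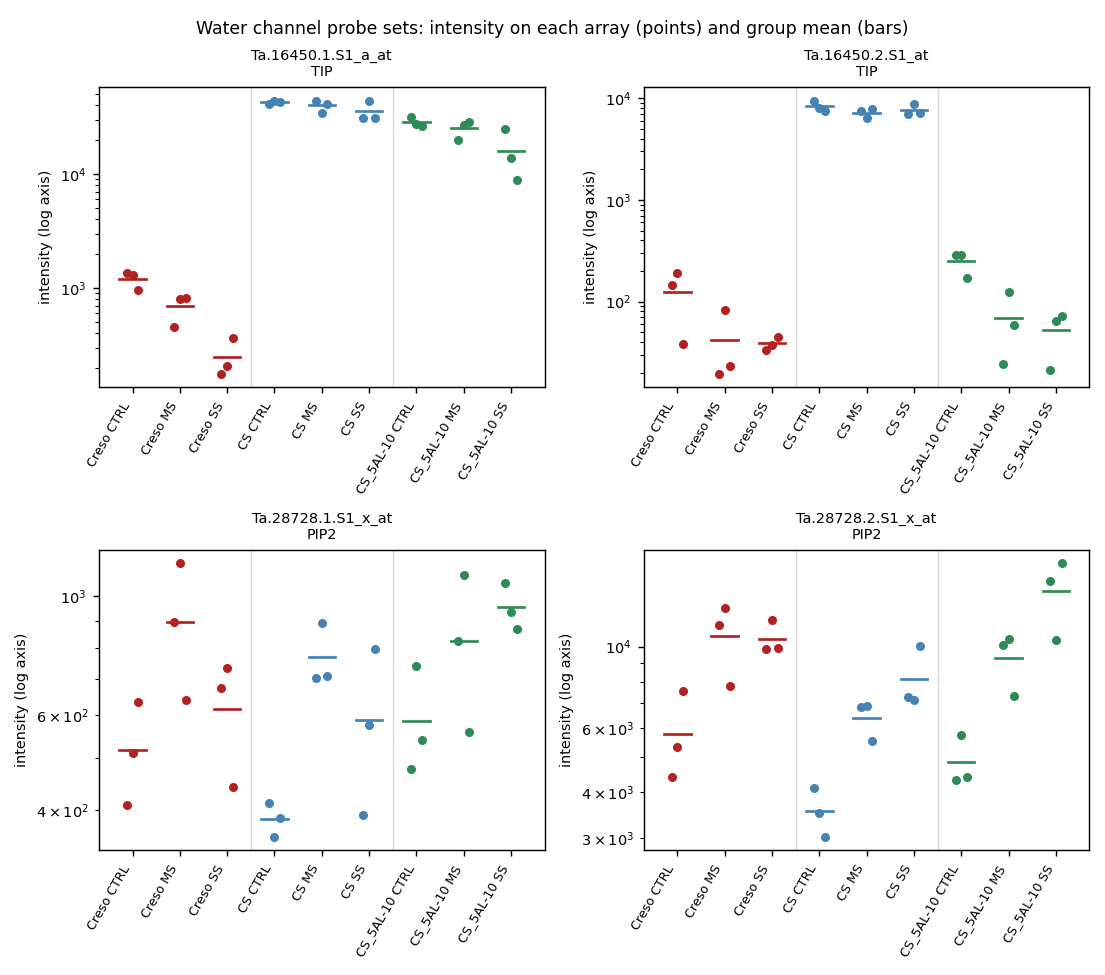
Intensity (y axis, log scale) of the 4 water channel probe sets on each array (points) and the group mean (bars) in the 9 groups (x axis). On the TIP probe set ending in S1_at the CS arrays lie between 6358 and 9507 and all other arrays at or below 287.

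The nitrate class held a pair of carriers with opposite directions. NTP3 (AT3G21670), a proton-coupled nitrate carrier of the family to which low affinity nitrate transporters belong, was the member with the largest SS change. In Creso its intensities were 103, 93.7 and 155 under CTRL, 479, 537 and 300 under MS and 1879, 2202 and 1734 under SS. CS gave 56.3, 137 and 85.6, 169, 116 and 88.4, and 424, 226 and 272. CS_5AL-10 gave 89.1, 90.1 and 57.6, 192, 152 and 70.3, and 344, 454 and 313. The groups of Creso stepped up without overlap from CTRL to MS to SS, and in the bread wheats the SS arrays lay above all CTRL arrays while the MS arrays overlapped with them. The SS changes were 4.03 (SE 0.32) for Creso, 1.64 (SE 0.32) for CS and 2.10 (SE 0.32) for CS_5AL-10. CTRL levels did not pass the test between genotypes, CS minus Creso being -0.57 (SE 0.32, adjusted p = 0.14). Under SS, CS was lower than Creso by a difference in log2 of -2.96 (SE 0.32, adjusted p = 5.2e-08) and CS_5AL-10 by a difference in log2 of -2.62 (SE 0.32, adjusted p = 3.1e-07).

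NTL1-like (AT1G27040), of the same family, was lower under stress and higher in bread wheat. CS gave 3565, 3800 and 4345 under CTRL, 2648, 1692 and 2536 under MS and 1014, 2442 and 1766 under SS. CS_5AL-10 had 3982, 3226 and 3325, 2642, 2148 and 2944, and 1605, 1044 and 2212 in the same order, and Creso 511, 358 and 649, 465, 572 and 572, and 229, 300 and 280. The SS arrays lay below the CTRL arrays in all 3 genotypes, by a difference in log2 of -1.19 for CS, -1.09 for CS_5AL-10 and -0.71 for Creso. In CTRL the bread wheats exceeded Creso by 2.70 (SE 0.29, adjusted p = 5.3e-08) and 2.58 (SE 0.29, adjusted p = 9.3e-08), and under SS by 2.22 (SE 0.29, adjusted p = 1.1e-06) and 2.19 (SE 0.29, adjusted p = 1.1e-06), CS first. CS MS replicate 3 and CS SS replicate 2, the CS arrays with least endosperm signal, gave 2536 and 2442. The part of grain RNA in these levels was not tested. In CS SS the array with most endosperm signal (replicate 3) gave 1766 and in CS_5AL-10 SS (replicate 2) 1044.

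Amino acid carriers held the widest CTRL difference between genotypes among the 42 members. LHT stands for lysine and histidine transporter, which in Arabidopsis takes up a broad range of amino acids. On 1 of the 3 LHT probe sets (AT5G40780) Creso gave 6.43, 48 and 16.7 under CTRL, 32.1, 60.1 and 10.3 under MS and 30.7, 51.5 and 46.3 under SS, the CTRL and SS groups being low. CS gave 2051, 3309 and 4444, 1654, 1340 and 1825, and 1042, 1053 and 1537, and CS_5AL-10 gave 6376, 6851 and 5070, 2035, 3535 and 2768, and 2302, 1663 and 1163. The CTRL level was at least 29.8-fold higher in CS and at least 59.1-fold higher in CS_5AL-10 than in Creso. Under SS the bounds were 11.9-fold and 17.1-fold. Both bread wheats were lower at SS than in CTRL, by a difference in log2 of -1.33 (SE 0.37) and -1.79 (SE 0.37). CS MS replicate 3 and SS replicate 2 gave 1825 and 1053, against at most 60.1 on any Creso array.

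The other LHT probe sets, a brighter one and one ending in _s_at, match the same Arabidopsis gene and did not share this pattern. In Creso CTRL they gave 5744, 9368 and 3021, and 1427, 2182 and 1252. The CS CTRL values were 4414, 5320 and 6565, and 1836, 1971 and 2467, so that CS and Creso overlapped on both. CS_5AL-10 CTRL gave 8928, 11103 and 8663, and 4216, 4969 and 3308. On the second probe set CS_5AL-10 exceeded Creso by 1.16 (SE 0.26, adjusted p = 0.00077) and CS by 1.01 (SE 0.26, adjusted p = 0.033). The call against CS was lost without CTRL replicate 1 or 2 of either bread wheat, where the difference was as low as 0.84, with no centring (0.98) and with an offset of 64 (0.99). At SS the changes were -0.04 and -0.19 for Creso, -1.02 and -0.91 for CS, and -1.60 and -1.83 for CS_5AL-10.

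LHT-like (AT1G67640) had opposite signs of the SS change in Creso and CS_5AL-10. Creso gave 271, 202 and 268 under CTRL, 325, 395 and 460 under MS and 1214, 1132 and 631 under SS, the SS arrays lying above the others. MS and CTRL arrays overlapped once the arrays were centred. CS_5AL-10 gave 1842, 1960 and 1102, 1040, 1081 and 816, and 1001, 793 and 586, with all SS arrays below CTRL. CS, with 691, 986 and 1021 under CTRL and 716, 957 and 701 under SS, overlapped. The changes were 2.03 (SE 0.27) for Creso, -0.13 (SE 0.27) for CS and -0.94 (SE 0.27) for CS_5AL-10. In CTRL the bread wheats exceeded Creso by 1.55 (SE 0.27, adjusted p = 4.7e-05) and 2.41 (SE 0.27, adjusted p = 7.6e-08), CS first, and under SS the differences were -0.61 (SE 0.27, adjusted p = 0.065) and -0.56 (SE 0.27, adjusted p = 0.085).

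The remaining amino acid carriers were a pair that was brighter in Creso CTRL and 1 that was dim. A member of an amino acid transporter family likened to vesicular GABA transporters (AT2G41190) gave 1555, 1989 and 1509 in Creso CTRL, 2751, 2246 and 2348 under MS and 5025, 5328 and 5393 under SS. In CS it gave 654, 695 and 628, 1158, 1797 and 1190, and 3446, 1057 and 1401, and in CS_5AL-10 583, 832 and 942, 1367, 1540 and 1657, and 2254, 2900 and 1478. It was called higher at SS in all 3 genotypes, by 1.77, 1.42 and 1.52, the call in CS being lost without SS replicate 1 (0.94). In CTRL it was lower than in Creso by a difference in log2 of -1.57 (SE 0.29, adjusted p = 9.5e-05) for CS and -1.31 (SE 0.29, adjusted p = 0.00058) for CS_5AL-10. The amino acid permease AAP (AT1G77380) had CTRL values of 5365, 3323 and 3817 for Creso, 2502, 2285 and 1862 for CS and 3185, 2831 and 2446 for CS_5AL-10, and CS was lower than Creso by a difference in log2 of -1.13 (SE 0.24, adjusted p = 0.00053). The cationic amino acid transporter CAT (AT4G21120) was low in all Creso groups, in CS SS and in CS_5AL-10 MS. It passed the filter through CS_5AL-10 CTRL alone, where it gave 183, 221 and 160, at least 1.97-fold above Creso. The member had to be bright there to be tested.

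Sugar and polyol carriers were brightest in CS_5AL-10 CTRL. PLT5 (AT3G18830) is a proton symporter for polyols and monosaccharides. Its probe set ending in _x_at gave 50, 110 and 58.6 in Creso CTRL, 104, 76.8 and 109 under MS and 239, 282 and 160 under SS. CS gave 624, 918 and 1055, 296, 104 and 347, and 118, 192 and 492, while CS_5AL-10 gave 3069, 3280 and 2147, 461, 1063 and 1260, and 467, 480 and 401. Bread wheat levels were lower under stress and nearer to those of Creso, whose SS arrays were above its CTRL arrays. The SS changes were 1.61 (SE 0.44) for Creso, -1.78 (SE 0.44) for CS and -2.52 (SE 0.44) for CS_5AL-10, each without overlap of SS and CTRL arrays. On the other probe set of PLT5 the bread wheat changes were -1.80 and -3.01 and the change in Creso was -0.04, with overlap. In CTRL the first probe set exceeded Creso by 3.10 (SE 0.44, adjusted p = 3.7e-06) for CS and 4.83 (SE 0.44, adjusted p = 2.9e-09) for CS_5AL-10, and CS_5AL-10 exceeded CS by 1.73 (SE 0.44, adjusted p = 0.03). On the second the difference between the bread wheats was 1.91 (SE 0.51, adjusted p = 0.039), and its call was lost with any 1 of the 6 arrays left out (1.77 to 2.03). On the first the call was lost without CTRL replicate 1 or 2 of either line (1.56 to 1.75). With no filter the second was at an adjusted p of 0.051, and with an offset of 1 the adjusted p were 0.093 for the second and 0.052 for the first.

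The mannitol transporter (AT2G16120), a polyol carrier, was bright in bread wheat in every treatment. CS gave 1991, 1682 and 2868 under CTRL, 935, 840 and 1034 under MS and 1058, 850 and 1154 under SS, and CS_5AL-10 2942, 3205 and 2728, 1247, 2007 and 2283, and 1583, 1618 and 714. Creso gave 112, 118 and 83, 69.5, 67 and 87.7, and 67.1, 114 and 125. Every bread wheat array lay above every Creso array. In CTRL the differences to Creso were 3.92 (SE 0.30, adjusted p = 1.1e-10) and 4.42 (SE 0.30, adjusted p = 1e-11), CS first. The bread wheats were lower at SS by a difference in log2 of -1.01 (SE 0.30) and -1.18 (SE 0.30), and the change in Creso was 0.08 (SE 0.30). The glucose carrier STP1 (AT1G11260) had CTRL values of 2323, 2364 and 1372 for CS_5AL-10, 556, 552 and 833 for CS and 541, 516 and 278 for Creso. CS_5AL-10 exceeded CS by 1.63 (SE 0.35, adjusted p = 0.0082) and Creso by 1.94 (SE 0.35, adjusted p = 7.5e-05), and its SS arrays, at 311, 309 and 204, were lower than CTRL by a difference in log2 of -2.71 (SE 0.35). The call against CS was lost without CS CTRL replicate 2 or CS_5AL-10 CTRL replicate 1 or 2 (1.47 to 1.52). Endosperm signal was lower in CS_5AL-10 CTRL (8.24 to 10.53) than in CS CTRL (10.7 to 11.31), and its part in the differences of both lines on these carriers was not tested.

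Carriers of nucleotide sugars, which supply the Golgi apparatus for cell wall synthesis, were highest in Creso MS or in control bread wheat. The brighter of a pair of UDP-sugar transporter-related probe sets gave 2140, 1434 and 2751 in Creso CTRL, 5130, 8166 and 6240 under MS and 1230, 892 and 1391 under SS. The Creso MS arrays stood above all other arrays, and the change from MS to SS was -2.40 (SE 0.45). CS gave 772, 1157 and 524 under CTRL, 552, 260 and 863 under MS and 102, 443 and 270 under SS, and CS_5AL-10 913, 766 and 668, 711, 604 and 575, and 503, 266 and 820. In CTRL it was lower than in Creso by a difference in log2 of -1.61 (SE 0.45, adjusted p = 0.0051) for CS and -1.59 (SE 0.45, adjusted p = 0.0059) for CS_5AL-10. Creso MS replicate 1, the array with endosperm signal, gave 5130, the lowest of the 3. The dimmer one, of the same match, followed it over the 27 arrays (r = 0.964, and 0.80 without group means). The GDP-mannose transporter-like probe set (AT1G76340) was lower at SS in each genotype, with 3402, 5750 and 4586 in CS CTRL and 335, 1468 and 676 in CS SS, and changes of -1.07 for Creso, -2.61 for CS and -1.84 for CS_5AL-10.

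In the class of sulfate and phosphate the mitochondrial phosphate transporter (AT3G48850), which brings phosphate into the matrix, was lower at SS in the bread wheats on its 3 probe sets. The one ending in _a_at gave 715, 967 and 1304 in CS CTRL, 435, 376 and 430 under MS and 208, 280 and 176 under SS. CS_5AL-10 gave 1943, 2177 and 1168, 575, 970 and 732, and 643, 344 and 368, and Creso 154, 249 and 114, 56, 97.7 and 165, and 246, 227 and 176. The changes at SS on the 3 probe sets were -2.09 to -1.44 for CS and -1.86 to -1.50 for CS_5AL-10, with no overlap, and -0.17 to 0.49 for Creso, with overlap. In CTRL all 3 were called higher in both bread wheats than in Creso, the one ending in _a_at by 2.20 (SE 0.35, adjusted p = 1.5e-05) for CS and 3.04 (SE 0.35, adjusted p = 1.2e-07) for CS_5AL-10. Under SS the brightest probe set was lower in CS than in Creso by a difference in log2 of -1.32 (SE 0.26, adjusted p = 0.00023), the 1 member with calls in opposite directions in CTRL and under SS.

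Sulfate transporters had lower SS levels in CS. Sultr1;2 (AT1G78000), which in Arabidopsis takes up sulfate in roots, gave 993, 1278 and 823 in Creso CTRL and 973, 996 and 992 under SS. CS went from 895, 905 and 1201 to 275, 579 and 512, and CS_5AL-10 from 1876, 2031 and 1314 to 540, 470 and 612. The changes were 0.09, -1.11 and -1.57. Genotypes did not pass the test in CTRL, CS minus Creso being -0.28 (SE 0.30, adjusted p = 0.46). Under SS the bread wheats were lower than Creso by a difference in log2 of -1.48 (SE 0.30, adjusted p = 0.00026) and -1.13 (SE 0.30, adjusted p = 0.0031), CS first. ST1 (AT3G51895) had SS changes in CS of -1.24 on its brighter probe set and -1.02 on the one ending in _x_at. For the latter this was its widest drought change, the narrowest such value among the 42 members.

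The phosphate transporter family member (AT3G26570), whose Arabidopsis match sits in the chloroplast envelope, went the other way. Its values were 1659, 1458 and 2662 in Creso CTRL and 3616, 4034 and 3875 under SS, 2302, 1734 and 1748 and 3421, 3156 and 3401 for CS, and 1470, 1308 and 1181 and 2800, 3331 and 3426 for CS_5AL-10. The SS arrays were above CTRL in each genotype, by 1.17, 0.84 and 1.34, and no CTRL comparison of genotypes reached 2-fold.

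Cation and metal transporters were mostly higher at SS in all genotypes. KEA2 (AT4G00630), a potassium and proton exchanger of the chloroplast envelope in Arabidopsis, gave 496, 444 and 849 in Creso CTRL, 500, 723 and 788 under MS and 1238, 1097 and 1098 under SS. CS gave 662, 694 and 878, 1287, 737 and 557, and 2097, 1512 and 1760, and CS_5AL-10 388, 475 and 314, 431, 420 and 374, and 717, 1022 and 1220. At MS its change was 0.27 for Creso, 0.30 for CS and 0.03 for CS_5AL-10, with overlap of MS and CTRL arrays. The SS changes were 1.11 (SE 0.28), 1.30 (SE 0.28) and 1.36 (SE 0.28), and the call in Creso was lost without CTRL replicate 2 (0.90), with quantile normalization (0.91) and with no centring (0.98). NRAMP3 (AT2G23150), which releases iron and manganese from the vacuole, was called higher at SS in all 3 genotypes on the dimmer of its probe sets, by 1.21, 1.34 and 1.15. Its arrays gave 551, 681 and 627 in Creso CTRL, 380, 307 and 1042 under MS and 1414, 1260 and 1285 under SS. The values were 410, 249 and 503, 512, 709 and 954, and 978, 871 and 950 for CS, and 691, 609 and 631, 1054, 1310 and 1752, and 1460, 1458 and 1214 for CS_5AL-10. In the bread wheats part of this was present at MS (1.06 and 1.01, CS first), and in Creso the MS arrays overlapped with CTRL. The call was lost in Creso without SS replicate 1 (1.16) and with quantile normalization (0.99), in CS without CTRL replicate 2 (1.02), and in CS_5AL-10 without CTRL replicate 2 or 3 or SS replicate 1 or 2 (1.12 to 1.14).

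Of the other ion transporters, TPC1, CorA-like and OPT each had a genotype difference of their own. TPC1, the calcium-dependent cation channel of the tonoplast and annotated as the wheat gene TaTPC1, gave 1440, 1272 and 1379 in Creso CTRL and 2521, 2826 and 2445 under SS. CS gave 995, 1008 and 1118 and 1810, 1103 and 1008, and under SS the bread wheats were lower than Creso by a difference in log2 of -1.35 (SE 0.20, adjusted p = 7.3e-06) and -1.13 (SE 0.20, adjusted p = 6.2e-05). The CorA-like magnesium transporter (AT5G22830) had CTRL values of 1116, 1174 and 1345 for Creso, 486, 438 and 503 for CS and 495, 330 and 322 for CS_5AL-10. It was lower than in Creso by a difference in log2 of -1.56 (SE 0.18, adjusted p = 1.7e-07) and -1.86 (SE 0.18, adjusted p = 8.1e-09), and higher at SS in each genotype, by 0.86, 0.83 and 1.17, of which only the last was called. OPT (AT3G27020), likened to the yellow stripe carriers of metal chelates, had CTRL values of 940, 833 and 1012 for Creso and 2656, 2848 and 2633 for CS, and exceeded Creso by 1.29 (SE 0.13, adjusted p = 1.3e-08) for CS and 1.24 (SE 0.13, adjusted p = 2.1e-08) for CS_5AL-10. Under SS the difference of CS to Creso was 0.01 (SE 0.13, adjusted p = 0.96), Creso having reached 2823, 2917 and 2465.

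The potassium channel KCO1 (AT5G55630), a tonoplast channel in Arabidopsis, separated the species in every treatment. CS gave 1607, 1641 and 1934 under CTRL, 1534, 1620 and 1474 under MS and 1419, 1662 and 1739 under SS. CS_5AL-10 gave 1202, 1329 and 1444, 476, 657 and 521, and 845, 1051 and 758, and Creso 66.3, 69.9 and 31.4, 41.5, 30.2 and 33.1, and 18.2, 54 and 61.2. In CTRL the differences to Creso were 4.40 (SE 0.26) for CS and 4.05 (SE 0.26) for CS_5AL-10. Under SS Creso was low, and the bounds were at least 16-fold and 9.16-fold. CS changed little with treatment (-0.05 at SS), and CS_5AL-10 was lower at MS by a difference in log2 of -1.29 (SE 0.26), with no overlap. CS MS replicate 3 and SS replicate 2 gave 1474 and 1662, as the other CS arrays did.

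**Figure D5:**
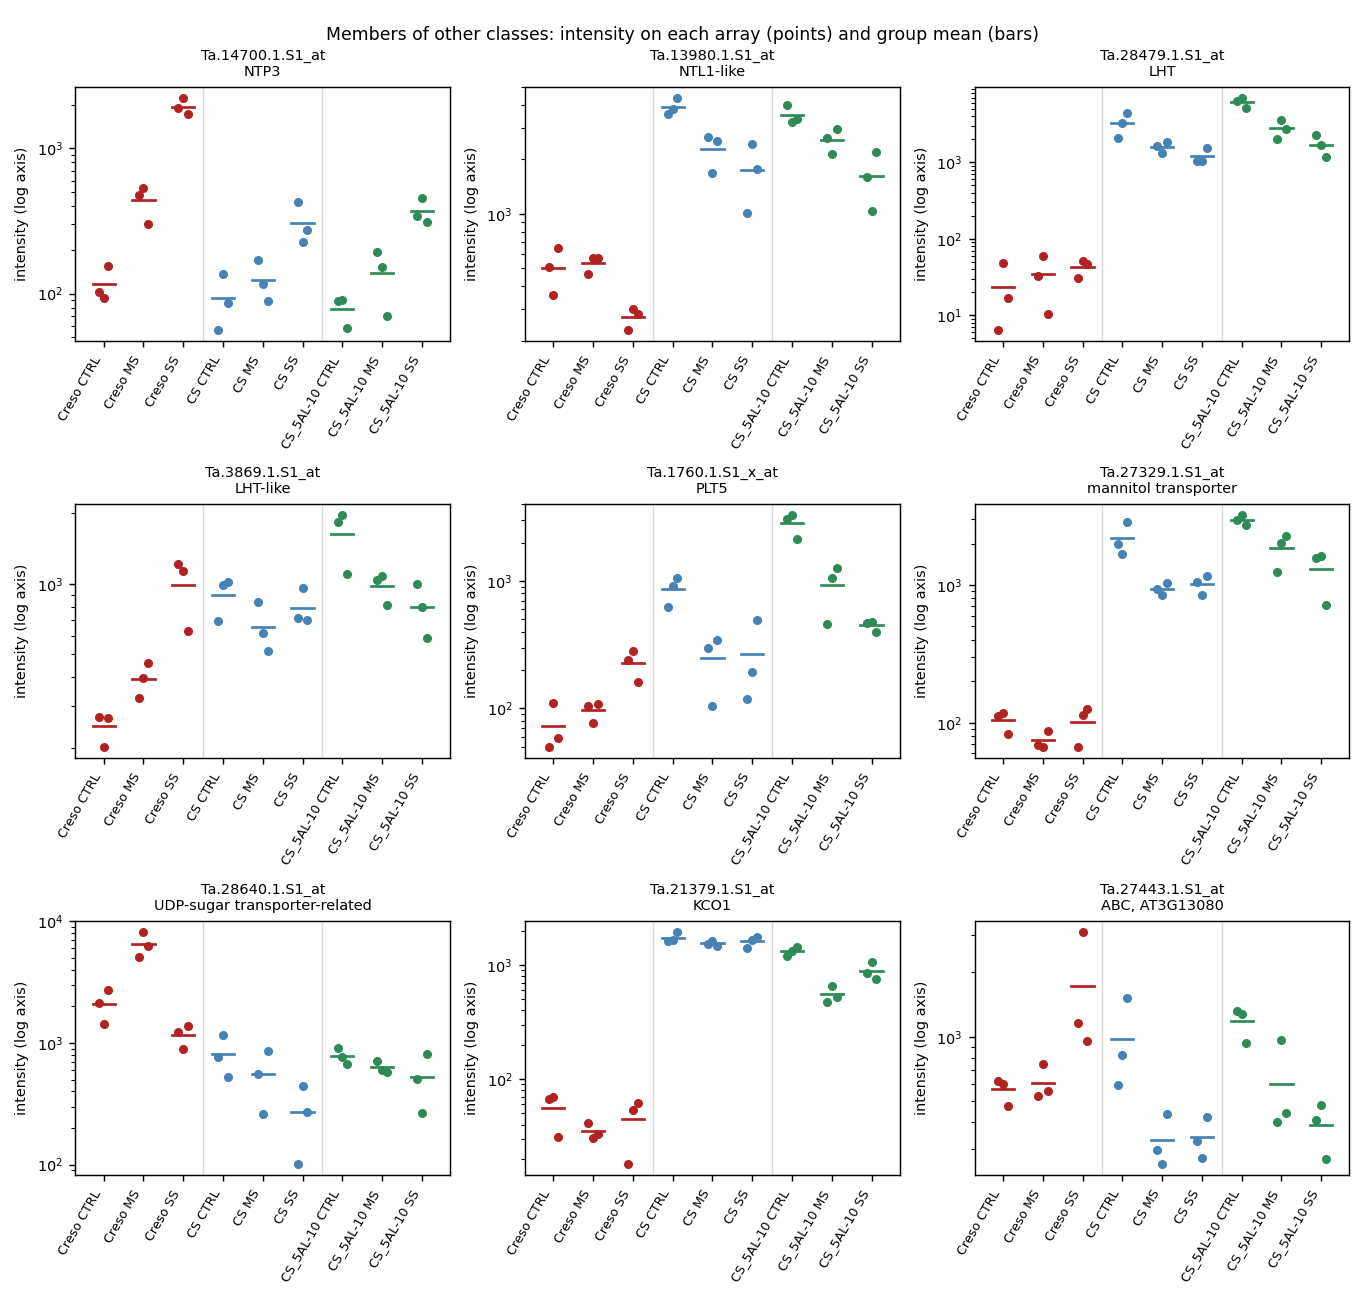
Intensity (y axis, log scale) on each array (points) and group mean (bars) for 9 members of the other classes in the 9 groups (x axis). NTP3 reaches 1734 to 2202 in Creso SS against at most 454 on any bread wheat array, and the LHT probe set shown stays at or below 60.1 on all Creso arrays.

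ABC proteins held members of both directions. The MRP-type transporter AT3G13080, whose Arabidopsis protein carries glutathione conjugates into the vacuole, gave 623, 605 and 478 in Creso CTRL and 1155, 3083 and 957 under SS. CS gave 595, 821 and 1522 and 328, 273 and 421, and CS_5AL-10 1327, 1280 and 937 and 409, 480 and 270. SS lay above CTRL on all Creso arrays and below it on all bread wheat arrays, with changes of 1.52 (SE 0.40), -1.34 (SE 0.40) and -1.52 (SE 0.40). CTRL plants did not pass the test between genotypes, CS minus Creso being 0.42 (SE 0.40, adjusted p = 0.39). Under SS the differences to Creso were -2.44 (SE 0.40, adjusted p = 2.3e-05) and -2.23 (SE 0.40, adjusted p = 6.1e-05), CS first. The transporter AT2G36380, described as multidrug resistance related, was low in all Creso groups, with 30.3, 62.3 and 20.3, 28.9, 20 and 18.1, and 13.3, 12.6 and 37. CS gave 182, 177 and 237 under CTRL, 90.8, 51.9 and 75.1 under MS and 41.5, 100 and 70.2 under SS, and CS_5AL-10 880, 862 and 522, 180, 241 and 225, and 134, 77.2 and 67.2. In CTRL CS_5AL-10 exceeded CS by 1.85 (SE 0.35, adjusted p = 0.0022). Against Creso CTRL the levels were at least 2.03-fold and 7.32-fold higher. Its call between the bread wheats held with each array left out (1.71 to 2.11) and was lost in the methods' t-test (adjusted p = 0.31).

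The soluble ABCF protein matched to AT5G60790 had SS changes on its 2 probe sets of 1.36 and 1.14 for Creso, 0.43 and 0.63 for CS, and 0.90 and 1.31 for CS_5AL-10. Both were called in Creso and the second in CS_5AL-10, and in CS the SS and CTRL arrays overlapped on both. The ABC protein AT5G61700 was lower at SS in each genotype, by a log2 difference of -0.90, -1.11 and -1.71, and AT3G59140, of the MRP type, had changes of 1.31, 0.03 and -0.37. The AAA ATPases are unfoldases of many cell functions. The one matched to AT1G64110 gave 30.2, 4.14 and 3.16 under CTRL, 21.3, 43.6 and 21.9 under MS and 38.1, 50.9 and 86.2 under SS for Creso, the CTRL and MS groups being low. CS gave 203, 246 and 245, 345, 578 and 357, and 789, 559 and 572, and CS_5AL-10 348, 385 and 207, 610, 499 and 450, and 708, 621 and 484. The CTRL levels were at least 2.35-fold and 3.11-fold higher than in Creso. The other, AT5G40010, had CTRL values of 272, 425 and 203 for Creso, 1419, 1958 and 1228 for CS and 2224, 2257 and 1732 for CS_5AL-10, and CS exceeded Creso by 2.09 (SE 0.36, adjusted p = 4.3e-05). Under SS it was lower in CS by a difference in log2 of -1.81 and in CS_5AL-10 by a difference in log2 of -1.22.

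Transport genes that were not chosen for a drought response stood beside the members as a small set. The annotation of the array platform names 4 such probe sets. Of these 3 are for the plasma membrane proton pump H+-ATPase, which drives proton-coupled carriers of that membrane. The last is for the malate channel ALMT1, which was below the filter. None of the 3 pump probe sets was called by limma in any of the 15 comparisons of drought or genotype. Without adjustment the counts at 2-fold were also 0, in limma and in the methods' t-test. Their SS changes were -0.22 to -0.03 for Creso, -0.45 to -0.01 for CS and 0.28 to 0.37 for CS_5AL-10, with adjusted p of 0.084 to 0.97. In CS_5AL-10 all SS arrays lay above all CTRL arrays on each of the 3. In CTRL the brightest pump probe set was lower in CS_5AL-10 than in Creso, at -0.60 (SE 0.15, adjusted p = 0.0016). The dimmest was lower in CS_5AL-10 than in Creso, at -0.49 (SE 0.17, adjusted p = 0.019), and than in CS, at -0.65 (SE 0.17, adjusted p = 0.034). These differences passed the adjusted p and were under 2-fold.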

How the data were processed

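The authors hybridised glume RNA to the array and deposited linear intensity values from MAS5, scaled on each array to a trimmed mean of 500.2 to 500.3, while their own tests used RMA values. Their drought list was not made from these intensities alone, and the calls here need not be theirs. Chinese Spring deletion samples were grouped by title, since a further label names only the parent line. Here 111 control probe sets were dropped, 16 was added, log2 was taken and the arrays, with medians of 59.1 to 99.1, were centred on a common median. Probe sets above the array median on all 3 arrays of at least 1 group were kept (34089 of 61179). limma 3.58.1 in R 4.3.3 fitted 9 group means over 27 arrays (eBayes with a trend, Benjamini-Hochberg adjustment over all tested probe sets), and was tested on simulated data. SE is the standard error of that fit. The methods' t-test is the Welch t-test that the study's methods name, and it compares only the arrays of the 2 groups. It was run here on the MAS5 values, not on the study's RMA values and present calls. Its counts are therefore not those of the study. The study's methods call the 3 arrays of a group biological replicates, without saying which plants went into each, so p-values measure the spread between these samples, and their number limits the precision. Homoeologous copies share probes.

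Members, substrate classes and lists were chosen with earlier results of these data known. Since the study chose the members on drought contrasts of these arrays, drought changes of members are given without p. Values of every array are given for the member of each class with the widest CTRL difference between genotypes and for those called at SS in 1 direction in all 3 genotypes. Values of other members were picked after they had been seen. Transport probe sets of the platform annotation were listed as a further set. Another 13 probe sets of the drought list with transport words outside the rule were not used. Alternatives were another filter, offset, scaling or test, separate fits, a replicate block and leaving out arrays.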

Additional observations from a re-analysis of the deposited data

Results flagged for a closer look

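For 3 members every SS array lay above every CTRL array in 1 genotype and below in another, as for 3.85% of all tested probe sets. The difference was not tested, and each value comes from 3 arrays against 3. For PLT5 on the probe set ending in _x_at, a polyol and monosaccharide carrier, the log2 change at SS was 1.61 for Creso, -1.78 for CS and -2.52 for CS_5AL-10. On the other PLT5 probe set the log2 change at SS was -0.04 for Creso, with overlap, -1.80 for CS and -3.01 for CS_5AL-10. For the MRP-type ABC protein AT3G13080 it was 1.52 for Creso, -1.34 for CS and -1.52 for CS_5AL-10. For the LHT-like amino acid carrier (AT1G67640) it was 2.03 for Creso and -0.94 for CS_5AL-10. The members were selected on drought contrasts of these arrays.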

How the results depend on the processing

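The count of called members is compared here. For MS against CTRL in Creso it was 1, and became 2 with the filter at the 75th percentile, 2 with quantile normalization, 4 with no centring, 2 with an offset of 1, 3 with an offset of 64 and 2 with separate fits. For SS against MS it became 1 in CS and 4 in CS_5AL-10 with quantile normalization, and likewise 1 and 4 with no centring, in place of 0 and 2. Separate fits gave 0 for SS against MS in CS_5AL-10 and 1 between CS_5AL-10 and CS under SS, in place of 2 each. Run on the MAS5 values and not on the study's RMA values, the methods' t-test after Benjamini-Hochberg called 0 members in all drought comparisons. Between CS_5AL-10 and CS it also called 0, in CTRL and under SS. It called 14 between CS and Creso in CTRL, 11 under SS, and 8 between CS_5AL-10 and Creso under SS, and it lost calls of single members given in the report. An alternative chosen after seeing the data left out the arrays with more endosperm signal than the rest of their group, Creso MS replicate 1 and CS_5AL-10 SS replicate 2. It gave 2 for MS in Creso, 0 for SS against MS in CS_5AL-10 and 5 between CS_5AL-10 and CS under SS.

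With each array left out in turn, the counts ran from 1 to 5 for MS in Creso, 5 to 11 for SS against MS in Creso, 0 to 8 for MS in CS, 0 to 1 for SS against MS in CS and 12 to 23 for SS against CTRL in CS. In CS_5AL-10 they ran from 4 to 10 for MS and 0 to 2 for SS against MS. Between CS_5AL-10 and CS they ran from 2 to 6 in CTRL and 1 to 4 under SS. The differences of single members were recomputed for 30 values of 18 members, none of which changed sign under any alternative run, and no other count moved by over 1.5 times. Same-numbered replicates were not paired: in 0 of 15 comparisons did every pair correlate over 0.1 (-0.566 to 0.205). With the replicate number as a block, counts were 8 for MS in CS and 8 in place of 9 for MS in CS_5AL-10. Signals at or under the array median limit what low groups can show.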
